A study of Mus musculus with 80 samples.

Results

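Neat1, Malat1 and 5 genes of paraspeckle proteins (Sfpq, Nono, Pspc1, Rbm14 and Tardbp) were followed in chromatin-associated RNA (ChrRNA-seq) of mouse embryonic stem (mES) cells. These 7 of 22556 genes were taken by name, from a list of known members of these bodies. Of the 7, 6 had reads and could be tested. Rbm14 was listed at 0 in all 80 libraries.

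Neat1 is a nuclear long noncoding RNA (lncRNA) with a short, polyadenylated form and a long form that start at the same promoter. The long form is the scaffold of paraspeckles, nuclear bodies in which proteins coat the RNA. SFPQ, NONO and PSPC1 are related RNA-binding proteins that occupy Neat1 along its length, RBM14 is needed to assemble the body, and TARDBP (TDP-43) is an RNA-binding protein that is found there and acts in RNA processing. Malat1, the neighbour of Neat1, is an abundant lncRNA of nuclear speckles, where splicing factors are stored. In the nucleus, unneeded RNA is passed to the RNA exosome by adaptor complexes. ZCCHC8 belongs to the NEXT adaptor, which mainly handles short transcripts without a poly(A) tail, and ZFC3H1 belongs to the PAXT connection, which handles polyadenylated nuclear RNA.

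The cells came from a Mus castaneus by 129 cross and were grown on mitomycin-inactivated feeder fibroblasts in serum with LIF. Every line carried a doxycycline (Dox) inducible TetOn promoter at the endogenous Xist gene of a single X chromosome, so that Dox and induction of Xist, the RNA that silences the X, cannot be told apart. In the degron lines a protein carried an FKBP tag, through which the compound dTAG-13 (dTAG) removes it. The METTL3 line, for the catalytic subunit of the m6A RNA methyltransferase, had 4 clones with the tag at the N terminus (G4, H1) or the C terminus (C3, H5). ZCCHC8 (Z4F, Z12H), ZFC3H1 (8H, 11A) and YTHDC1, a nuclear reader of m6A (Y9F, Y12H), had 2 clones each. YTHDC1 had 2 experiments with the same clones, of which the first shares a table with ZCCHC8. The inducible Xist was on the castaneus X in the METTL3, ZFC3H1 and transgene lines, and on the 129 X, with a Bgl stem-loop array, in the YTHDC1 and ZCCHC8 lines. The transgene lines were derived from METTL3 clone H5 and expressed GFP-METTL3 from Rosa26, as wild type (WT) or with the D395A change of the catalytic site. Each existed as 1 clone with 2 X chromosomes (called WT XX or D395A XX here) and 1 clone labelled XiO (called WT XiO or D395A XiO), sequenced in 2 experiments. In XiO clones, by the study's list of lines, the X with the inducible Xist was kept and the other X was not found, which bears on X-linked Nono in these 16 libraries. Each clone was sequenced untreated, with dTAG (26 h by the sample titles), with Dox (24 h), and with Dox for 24 h on top of dTAG that was begun 2 h earlier and kept (dTAG+Dox).

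Libraries held 8.58 to 34.4 M (megareads) counted reads, with a median of 22.5 M, so that 1 read was worth 0.0291 to 0.117 CPM, the library-size scaled count used throughout. This covers counting error only. Xist was higher with Dox in 40 of 40 pairs of libraries, by a median of 4.65 on the log2(CPM + 1) scale. The targeted genes' own RNA does not report depletion, because the degron acts on protein. Summed mES cell markers (8 genes, Pou5f1 and Nanog among them) lay between 1010 and 2131 CPM in 72 libraries, and between 621 and 812 CPM in the 8 libraries of the WT XiO clone. Of the 8 genes, 7 were above 0 in each library. That clone also stood apart in 10 endoderm and mesoderm markers, at 40.7 to 103 CPM against 7.18 to 19.8 CPM elsewhere, and its values are given with and without it where they count. In these bulk samples fewer cells of a type and less RNA per cell cannot be told apart.

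The expression tables counted reads over gene intervals, introns included, and for Neat1 that interval held the short form alone. Neat1 was counted on the minus strand of chr19:5842302-5845478 (GRCm38), 3177 bases. RefSeq on the same build gives a short transcript of 3185 bases and a long transcript of 20771 bases, so that 15.3% of the long form was counted and 17594 bases of the gene lay outside the interval. Values of Neat1 are therefore the sum of the short form and of the 5′ part of the long form. Malat1, at chr19:5795690-5802671 on the same strand, begins 22036 bases downstream of the end of the long Neat1 transcript and was counted over its whole length of 6982 bases. The ends of both counted intervals are shown because they mark where counting stops, and the capitals mark AATAAA, the motif of the polyadenylation signal. Whether either RNA ends in a poly(A) tail there was not tested. The last 150 bases of the counted intervals, from the reference genome and written 5′ to 3′ on the minus strand, were read at chr19:5842302-5842451 for Neat1 and at chr19:5795690-5795839 for Malat1:
Neat1: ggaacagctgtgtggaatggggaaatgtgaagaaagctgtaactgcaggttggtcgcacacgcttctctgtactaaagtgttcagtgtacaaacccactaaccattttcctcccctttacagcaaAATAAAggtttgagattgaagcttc
Malat1: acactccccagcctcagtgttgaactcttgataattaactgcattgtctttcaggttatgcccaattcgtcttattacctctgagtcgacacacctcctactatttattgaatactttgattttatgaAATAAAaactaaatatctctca

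Each stretch held AATAAA 1 time on the gene's strand, starting 25 bases before the end in Neat1 and 22 bases before it in Malat1. In the last 60 bases of all 22556 intervals this signal stood on the gene's strand in 57.2% of genes and on the other strand in 8.1%. No other motif was searched.

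**Figure D1:**
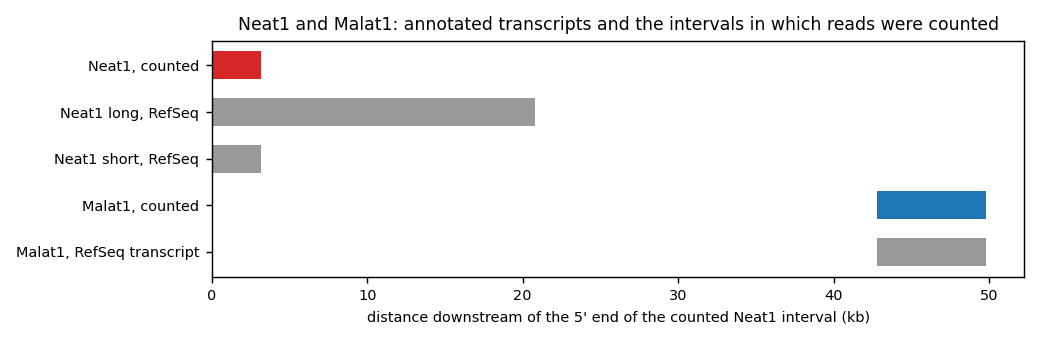
Bars show, along the distance in kb from the 5′ end of the counted Neat1 interval, the annotated short and long Neat1 transcripts, the Malat1 transcript and the intervals in which reads were counted. The counted Neat1 interval covers the short form and 15.3% of the long form, whereas Malat1 is covered entirely.

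The protein genes lay on other chromosomes, apart from Rbm14. Sfpq was listed on the plus strand of chromosome 4 (127021301 to 127031236), which is 9936 bases. Its deposited length is 15715 bases, and a RefSeq transcript from the same start runs to 127037014, so its reads may come from a longer stretch. Tardbp was counted on the minus strand of chromosome 4 (148612382 to 148626996). Nono was counted on the plus strand of the X (101429651 to 101448593) and Pspc1 on the minus strand of chromosome 14 (56722449 to 56778316). Rbm14, on the minus strand of chromosome 19 (4800566 to 4811634), lies inside the interval of the readthrough gene Rbm14-rbm4 on the same strand. Rbm14-rbm4 was at 59.2 to 153 CPM (median 121), and reads of both genes could not be told apart, so no level of Rbm14 is given. The 3′ end of Tardbp is overlapped by Masp2 on the opposite strand, and counting used strand.

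Malat1 was the most abundant of the tested genes per length, with a median over the 80 libraries of 964 CPM per kb of counted interval. Sfpq followed with 75.5, Neat1 with 58.1, Tardbp with 19.8, Nono with 7.43 and Pspc1 with 7.11 CPM per kb. The value of Sfpq rests on 9936 bases. Over its deposited length of 15715 bases it would be lower, so its place against Neat1 is not settled. In this order Malat1 and Sfpq, and Tardbp and Nono, did not overlap over the libraries, and all other neighbours did. Neat1 spanned 14.8 to 661 CPM per kb, which takes in the whole range of Sfpq over 9936 bases (54.5 to 118). Neat1 had the widest range for its level, from 46.9 to 2099 CPM, against 44.0 to 227 CPM for Nono, 3650 to 14681 CPM for Malat1, 541 to 1175 CPM for Sfpq, 278 to 578 CPM for Pspc1 and 204 to 447 CPM for Tardbp. Tables were normalized separately, and levels set across lines are a description.

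Neat1 rose after depletion of ZCCHC8. Untreated clones were at 562.6 CPM (Z12H) and 432.6 CPM (Z4F), and with dTAG they were at 2047.5 and 2098.5 CPM. With Dox alone the same clones were at 213.9 and 286.3 CPM, and with dTAG+Dox at 407.6 and 521.5 CPM. The dTAG libraries lay above all others of the line, and with Dox, too, both clones with dTAG lay above both without it. On the log2(CPM + 1) scale the change with dTAG was 2.07 (SE 0.12, adjusted p 4.54e-09 in limma) without Dox and 0.89 (SE 0.12, adjusted p 2.55e-05 in limma) with Dox. The interaction, the dTAG effect in the presence of Dox minus that in its absence, was -1.17 (SE 0.17, adjusted p 0.00621 in limma), a call lost when genes of low level were kept (adjusted p 0.0986). Summed feeder fibroblast markers (12 genes) moved beside it, from 46.1 to 47.2 CPM untreated to 52.2 to 56.7 CPM with dTAG, with at least 11 of the 12 above 0 in each of these libraries. Their part in the result was not tested.

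YTHDC1, in the same table, gave no such rise. In its first experiment Neat1 was at 350.6 CPM in Y9F untreated, with a mean over both clones of 372.8 CPM (SD 31.4, n = 2), and with dTAG it was at 395.9 CPM (Y12H) and 400.9 CPM (Y9F). The change was 0.10 (adjusted p 0.627 in limma). With Dox the clones were at 220.0 and 196.2 CPM, and with dTAG+Dox at 201.5 and 201.7 CPM. The change was -0.04 (adjusted p 0.855 in limma). The difference between the ZCCHC8 and YTHDC1 lines was itself tested, and the change of Neat1 was higher in ZCCHC8 by 1.97 without Dox (SE 0.17, adjusted p 6.81e-07 in limma) and by 0.94 with Dox (SE 0.17, adjusted p 6.92e-04 in limma).

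**Figure D2:**
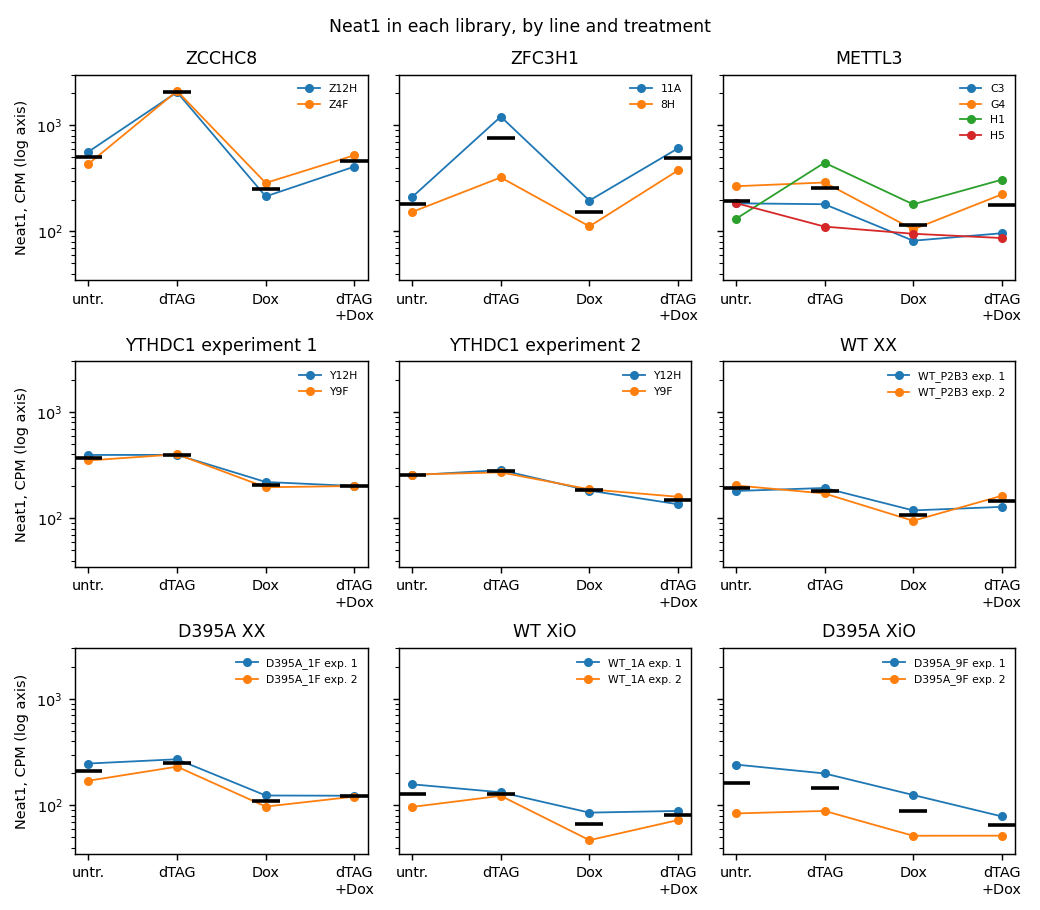
Each panel is a line, with the CPM of Neat1 in every library on a log axis and the 4 treatments along the bottom. Points joined by a line are one clone or experiment and black bars are group means. Both ZCCHC8 clones reach 2047.5 CPM or more with dTAG, and both ZFC3H1 clones lie above their own library without dTAG.

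In the second YTHDC1 experiment Neat1 with Dox was at 182.5 CPM (Y12H) and 187.7 CPM (Y9F), and with dTAG+Dox at 135.8 and 159.7 CPM. Both clones were lower, by -0.33 (SE 0.07, adjusted p 0.00253 in limma). Without Dox they were at 254.8 and 258.4 CPM untreated and at 284.6 and 271.0 CPM with dTAG, which gave 0.11 (adjusted p 0.269 in limma).

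Neat1 also rose after depletion of ZFC3H1, with clones that differed in size. In 11A it was at 210.8 CPM untreated and 1204.7 CPM with dTAG, and at 195.5 CPM with Dox and 606.6 CPM with dTAG+Dox. In 8H the same 4 libraries were at 152.6, 322.5, 111.7 and 376.0 CPM. All 4 libraries with dTAG lay above all 4 without it. Without Dox the change came to 1.79 with SE 0.25 (adjusted p 0.00612 in limma), made up of 2.51 in 11A and 1.07 in 8H. With Dox it came to 1.69 with SE 0.25 (adjusted p 0.00761 in limma), made up of 1.63 in 11A and 1.74 in 8H. When all genes above 0 were tested the adjusted p was 0.0624 and 0.0601, so the calls depend on the filter on low values. Feeder markers were at 44.96 to 62.3 CPM untreated and 45.5 to 66.9 CPM with dTAG, and at 33.1 to 54.5 CPM with Dox and 41.8 to 62.2 CPM with dTAG+Dox. The difference between the ZFC3H1 and ZCCHC8 lines was not tested, as they are in separate tables.

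In the METTL3 line Neat1 moved both ways. Clones C3, G4, H1 and H5 were at 184.2, 266.6, 131.4 and 185.1 CPM untreated and at 180.6, 289.2, 444.1 and 111.2 CPM with dTAG. H1 was higher and H5 lower, and the other clones moved less. The untreated H1 library stood apart from the other H1 libraries in further genes. In it Malat1 was at 13327.4 CPM (4425.5 to 5717.0 CPM in the others) and Pspc1 at 482.5 CPM (314.1 to 346.0 CPM). Genes under 3 kb held 1.02% of its reads (1.73 to 2.44% in the others, 0.498 to 4.57% over all METTL3 libraries). The part of this library was not tested. The change of Neat1 over the clones, 0.28 (SE 0.33), did not pass the threshold (adjusted p 0.533 in limma). With Dox the clones were at 81.9, 104.6, 180.1 and 95.2 CPM, and with dTAG+Dox at 96.3, 223.5, 307.2 and 86.8 CPM. The change of 0.49 (SE 0.33) did not pass either (adjusted p 0.305 in limma). The median of all genes in this line was higher by 0.21 without and 0.23 with Dox. After scaling by the median ratio over autosomal genes the changes of Neat1 were 0.02 and 0.21.

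Neat1 in the transgene lines was compared between dTAG and no dTAG in both experiments. WT XX was at 181.0 and 204.0 CPM untreated and 193.2 and 171.5 CPM with dTAG, and D395A XX at 246.8 and 170.0 against 270.8 and 230.7 CPM. In XiO cells WT was at 157.4 and 96.4 CPM untreated and 132.4 and 122.6 CPM with dTAG, and D395A at 241.4 and 83.7 against 199.1 and 88.4 CPM. The experiments differed by more than the treatment in XiO cells. Without a block of experiment no change of Neat1 with dTAG passed the threshold, the lowest adjusted p in limma being 0.450. D395A minus WT was tested directly, also without that block. For dTAG+Dox against Dox it came to -0.29 in XX cells (adjusted p 0.972 in limma) and to -0.67 in XiO cells (adjusted p 1.00 in limma). For dTAG against untreated it was 0.36 in XX cells (adjusted p 0.781 in limma) and -0.15 in XiO cells (adjusted p 1.00 in limma).

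Neat1 was lower with Dox in 38 of 40 pairs of libraries of the same clone, experiment and dTAG state. The median change was -0.84, or 0.560-fold, and the 40 changes spanned -2.33 to 0.45. Among 9660 genes that averaged 5 CPM or more in every table, 420 (4.35%) were lower in at least 38 of the 40 pairs, and 147 of these were among the 9326 autosomal genes. The median change of Neat1 ranked 4th from the lowest among the autosomal genes. Its exceptions were METTL3 clone H1 without dTAG, which went from 131.4 to 180.1 CPM, and ZFC3H1 clone 8H with dTAG, which went from 322.5 to 376.0 CPM. The H1 pair uses the untreated library that stood apart in other genes. Without the WT XiO clone 34 of 36 pairs were lower. Summed feeder fibroblast markers were lower with Dox in 28 of the 40 pairs, Neat1 being lower in 27 of these and in 11 of the 12 pairs where the feeder sum was higher. In METTL3 clone H1 without dTAG, an exception for Neat1, that sum went from 46.4 to 54.5 CPM. In ZFC3H1 clone 8H with dTAG, the other exception, the sum went from 45.5 to 41.8 CPM. The part of feeder cells in the change was not tested.

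The fall of Neat1 with Dox passed the threshold in part of the lines. In the first YTHDC1 experiment it fell by 0.84 without dTAG (SE 0.12, adjusted p 1.77e-04 in limma) and by 0.98 with dTAG (adjusted p 4.36e-05 in limma). In the second it fell by 0.47 (SE 0.07, adjusted p 6.89e-05 in limma) and by 0.91 (adjusted p 3.25e-08 in limma). In ZCCHC8 it fell by 0.99 (SE 0.12, adjusted p 3.09e-05 in limma) and, from the high level with dTAG, by 2.17 (adjusted p 2.28e-09 in limma). In METTL3 the change of -0.75 (SE 0.33, adjusted p 0.474 in limma) and in ZFC3H1 that of -0.28 (SE 0.25, adjusted p 0.708 in limma) did not pass. D395A XX fell by 1.03 with dTAG (SE 0.19, adjusted p 0.0339 in limma).

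The transgene lines without dTAG all gave lower values with Dox. WT XX went from 181.0 and 204.0 CPM to 118.8 and 94.9 CPM, and D395A XX from 246.8 and 170.0 CPM to 123.5 and 97.1 CPM. WT XiO went from 157.4 and 96.4 CPM to 85.2 and 46.9 CPM, and D395A XiO from 241.4 and 83.7 CPM to 124.8 and 51.6 CPM. Every experiment was lower, with changes of -0.90 in D395A XX, -0.85 in WT XX, -0.82 in D395A XiO and -0.95 in WT XiO and adjusted p from 0.0990 to 1.00 in limma. With a block of experiment, which compares libraries of the same experiment, the same changes had adjusted p of 2.77e-04 in D395A XX, 0.00118 in WT XX, 0.0167 in D395A XiO and 0.00492 in WT XiO, all in limma.

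**Figure D3:**
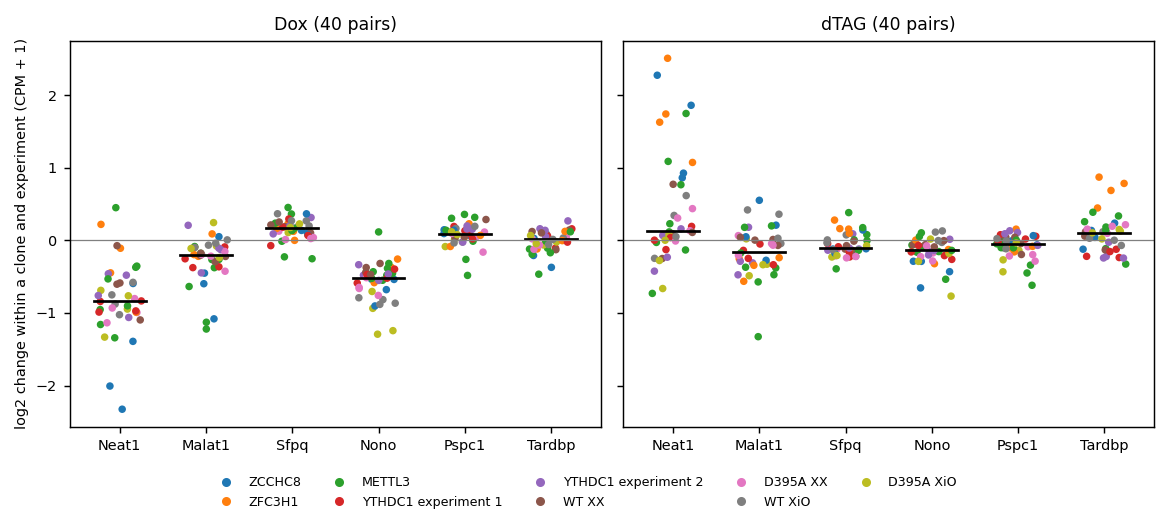
Each point is a pair of libraries of the same clone and experiment, and the vertical axis is the change on the log2(CPM + 1) scale, with Dox in one panel and with dTAG in the other, for the 6 genes with reads. With Dox 38 of 40 points lie below 0 for Neat1 and 39 of 40 for Nono, and with dTAG the ZCCHC8 and ZFC3H1 points of Neat1 reach up to 2.51.

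Malat1 had smaller changes than Neat1 in ZCCHC8 and ZFC3H1 with dTAG. In METTL3 (-0.52 against 0.28 without Dox), in both YTHDC1 experiments with Dox (-0.29 against -0.04, and -0.38 against -0.33) and in D395A XiO with Dox (-0.41 against -0.33) its change was the larger in size, and the difference between the genes was not tested. In ZCCHC8 Malat1 was at 11596.5 CPM (Z12H) and 10008.9 CPM (Z4F) untreated, and at 13412.9 and 14681.3 CPM with dTAG. Both clones were higher, by 0.38 (SE 0.13, adjusted p 0.0350 in limma), a call lost with median-ratio scaling (adjusted p 0.0655). With Dox they were at 7667.5 and 10372.3 CPM and with dTAG+Dox at 6342.0 and 10739.3 CPM. One clone was lower and the other higher, and the change was -0.11 (adjusted p 0.533 in limma). From dTAG to dTAG+Dox Malat1 fell by 0.77 (SE 0.13, adjusted p 5.05e-04 in limma).

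In ZFC3H1 both clones had less Malat1 with dTAG, whereas their Neat1 was higher. It went from 8952.5 to 7590.5 CPM in 11A and from 6189.4 to 4188.5 CPM in 8H, which gave -0.40 with SE 0.11 (adjusted p 0.103 in limma). With Dox it went from 8409.4 to 6628.4 CPM and from 5316.8 to 4458.0 CPM, for which the change was -0.30 (adjusted p 0.193 in limma). Neither passed the threshold. In the second YTHDC1 experiment addition of dTAG to Dox took Malat1 from 7896.9 to 5685.2 CPM (Y12H) and from 7255.8 to 5944.4 CPM (Y9F), and fell by 0.38 (SE 0.09, adjusted p 0.00569 in limma). With all genes above 0 in the test that call was lost (adjusted p 0.130).

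METTL3 clones C3, G4, H1 and H5 held Malat1 at 9695.3, 10260.9, 13327.4 and 9560.3 CPM untreated and at 11139.8, 6903.9, 5314.4 and 7348.9 CPM with dTAG. It was lower in 3 of the 4 clones, by -0.52 (SE 0.21, adjusted p 0.0891 in limma), or -0.78 with median-ratio scaling. The largest fall, in H1, starts from the untreated library that stood apart in other genes. With Dox, over all lines, Malat1 was lower in 35 of 40 pairs by a median of -0.20. In the tests without a block of experiment, the Dox change of Malat1 without dTAG passed the threshold in no line. Tests of Malat1 with that block in the transgene lines are not given here.

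Nono, which is X-linked, was lower with Dox in 39 of 40 pairs, by a median of -0.52. At least 39 lower pairs were found for 3.06% of the 9660 genes. In ZCCHC8 it was at 186.5 and 193.1 CPM untreated and at 128.2 and 133.0 CPM with Dox (Z12H, Z4F), and in ZFC3H1 at 201.9 and 223.5 against 155.9 and 149.0 CPM (11A, 8H). METTL3 clones went from 167.4 to 114.1 CPM (C3), 181.2 to 145.2 CPM (G4), 138.6 to 150.4 CPM (H1) and 171.4 to 122.7 CPM (H5), so that H1 was the exception. The H1 pair starts from the untreated library that stood apart in other genes. Without the WT XiO clone 35 of 36 pairs were lower.

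Nono fell with Dox by 0.55 (first YTHDC1 experiment, adjusted p 8.08e-06), 0.41 (second, adjusted p 1.93e-04), 0.54 (ZCCHC8, adjusted p 1.12e-05) and 0.48 (ZFC3H1, adjusted p 0.0219), all in limma. METTL3 (-0.31, adjusted p 0.238) and, in fits without a block of experiment, D395A XX (-0.58, adjusted p 0.502) and WT XX (-0.41, adjusted p 1.00) did not pass in limma. The median of all X-linked genes tested moved beside it, by -0.54, -0.51, -0.54 and -0.40 in the YTHDC1 experiments, ZCCHC8 and ZFC3H1. In XiO cells Nono went from 137.0 and 120.7 to 77.4 and 65.8 CPM (WT) and from 123.7 and 120.8 to 75.6 and 62.6 CPM (D395A). These are falls by 0.84 (adjusted p 0.0117 in limma) and 0.82 (adjusted p 0.0283 in limma), where the X-linked medians were -0.98 and -0.72. With dTAG present in both arms, Dox lowered Nono in D395A XiO from 109.2 and 122.4 to 44.0 and 51.1 CPM, a fall by 1.27 (adjusted p 7.80e-04 in limma). The same comparison gave falls by 0.84 in WT XiO, 0.79 in ZCCHC8, and 0.43 and 0.51 in the YTHDC1 experiments, with a highest adjusted p of 0.0125 in limma. In METTL3 that comparison gave a fall by 0.45 (SE 0.10, adjusted p 0.0461 in limma), a call lost when any 1 clone was left out and without the block of clone (adjusted p 0.208).

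After depletion of ZCCHC8 Nono was lower still. With Dox it went from 128.2 to 81.1 CPM (Z12H) and from 133.0 to 98.4 CPM (Z4F), and fell by 0.54 (SE 0.06, adjusted p 3.08e-06 in limma), where the X-linked median was -0.13. Without Dox it went from 186.5 to 152.5 CPM and from 193.1 to 158.1 CPM, a fall by 0.29 (SE 0.06, adjusted p 0.00159 in limma), where the X-linked median was -0.05. The first YTHDC1 experiment gave a fall by 0.24 without Dox (adjusted p 0.0124 in limma), from 196.8 to 170.1 CPM (Y12H) and from 205.7 to 171.4 CPM (Y9F). There the X-linked median was 0.06. Xist itself rose with dTAG in the absence of Dox, in ZCCHC8 from 108.0 to 704.4 CPM (Z12H) and from 84.3 to 738.3 CPM (Z4F). In that YTHDC1 experiment Xist went from 95.2 to 165.1 CPM (Y12H) and from 79.3 to 185.7 CPM (Y9F). Such rises of Xist were not particular to these lines. In ZFC3H1, for example, it went without Dox from 66.2 to 227.5 CPM (11A) and from 113.2 to 200.5 CPM (8H). Over all lines, with and without Dox, Nono was lower with dTAG in 33 of 40 pairs and higher in 7. The part of Xist in the falls of Nono with dTAG was not tested. With Dox the change of Nono was lower in ZCCHC8 than in YTHDC1 by -0.43 (SE 0.09, adjusted p 0.00132 in limma), and without Dox that difference was -0.05 (adjusted p 0.702 in limma). In D395A XiO cells Nono went with Dox from 75.6 and 62.6 CPM to 44.0 and 51.1 CPM when dTAG was added, without a call in limma unless experiment was a block (adjusted p 0.00169).

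The allelic ratio, the share of Nono reads over strain variants that belongs to the X whose Xist is inducible, is a second readout. How many reads stand behind a ratio is unknown, as none are given. In ZCCHC8 the ratio of Nono was 0.583 (Z12H) and 0.579 (Z4F) untreated, 0.556 and 0.521 with dTAG, 0.343 and 0.327 with Dox, and 0.307 and 0.247 with dTAG+Dox. In ZFC3H1 it was 0.381 (11A) and 0.368 (8H) untreated, 0.192 and 0.147 with Dox, and 0.236 and 0.175 with dTAG+Dox. D395A XX was at 0.143 and 0.154 with Dox, and with dTAG+Dox it had the lowest ratios, at 0.0940 and 0.0725.

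With Dox alone the ratio of Nono fell in the 6 lines that have one, and in both YTHDC1 experiments, as it did for most X-linked genes. It fell by 0.179 in METTL3 (90.9% of genes called lower), by 0.257 in the first YTHDC1 experiment (93.9%), by 0.275 in the second (91.4%), by 0.246 in ZCCHC8 (94.3%), by 0.205 in ZFC3H1 (58.9%), by 0.290 in D395A XX (92.7%) and by 0.214 in WT XX (87.5%). The highest adjusted p of these 7 comparisons was 0.00625 in limma, in ZFC3H1. By the study's list of lines, allelic reads of ZFC3H1 clone 11A are informative over a part of the X only, which holds Nono. The median change over X-linked genes was -0.126 in 11A and -0.220 in 8H, so the share called in ZFC3H1 is not like that of the other lines.

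Addition of dTAG to Dox lowered the ratio of Nono in METTL3, from 0.200, 0.231, 0.196 and 0.241 in C3, G4, H1 and H5 to 0.129, 0.185, 0.153 and 0.164. All 4 clones were lower, by -0.0595 (SE 0.0154, adjusted p 0.00781 in limma), where 55.4% of X-linked genes were called lower. In ZCCHC8 the change was -0.0584 (adjusted p 0.0584 in limma; 46.9% called lower) and in D395A XX -0.0652 (adjusted p 0.0831 in limma; 18.3% called lower). It was -0.0170 in WT XX (adjusted p 0.889 in limma, with 0.244% called lower), and higher, without a call, in the YTHDC1 experiments, by 0.0476 and 0.0783, and in ZFC3H1, by 0.0360, where 0% of genes were called lower. The difference between ZCCHC8 and YTHDC1 was -0.106 (SE 0.0309, adjusted p 0.0193 in limma), and 58.4% of genes were called lower in it. This call was lost when any 1 of the 4 clones was left out, with adjusted p from 0.0505 to 0.157 in limma.

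**Figure D4:**
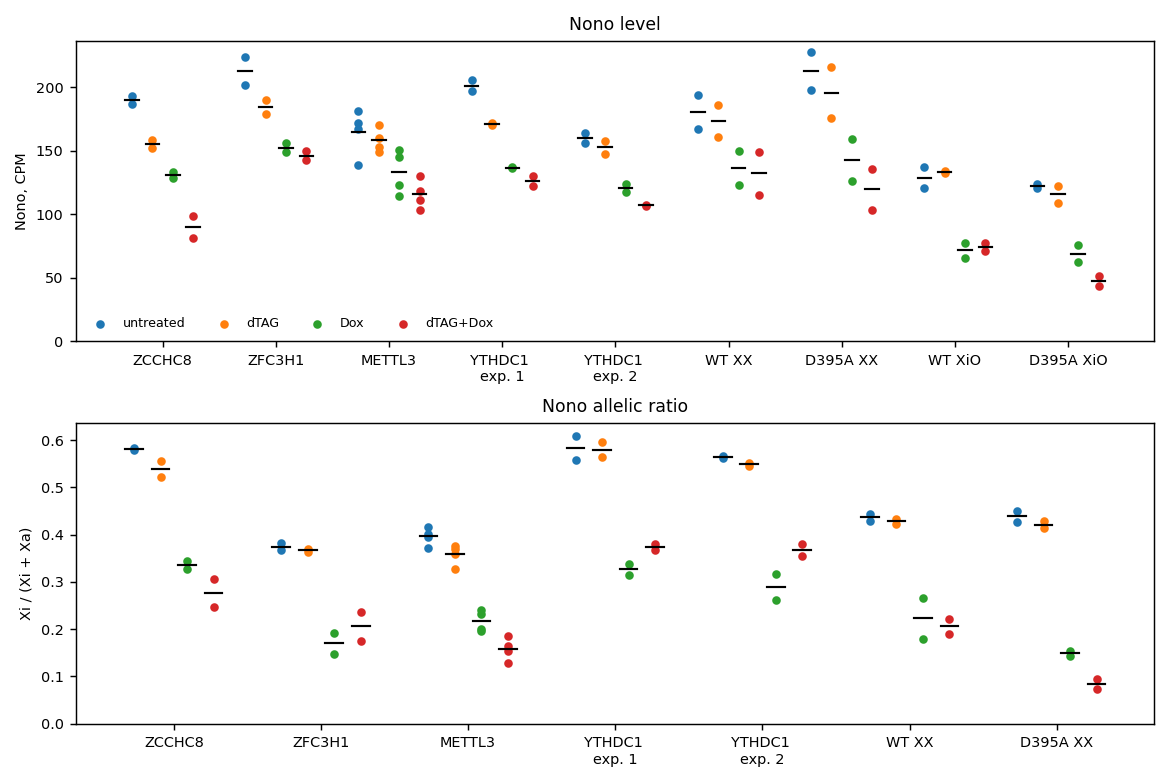
The upper axis shows CPM of Nono, and the lower axis its allelic ratio (share of reads of the X whose Xist is inducible), in each library by line, with colours for the 4 treatments and bars at the means. Within each clone libraries with Dox lie below those without in both measures, with METTL3 clone H1 as the exception in CPM. XiO lines have no ratio.

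Sfpq and Pspc1, the autosomal partners of Nono, moved little and mostly the other way. Sfpq was higher with Dox in 36 of 40 pairs, by a median of 0.17, and Pspc1 in 31 of 40, by 0.09. Sfpq in the second YTHDC1 experiment was at 801.2 CPM (Y12H) and 588.1 CPM (Y9F) untreated and at 915.6 and 732.0 CPM with Dox. It rose by 0.25 (SE 0.06, adjusted p 0.00962 in limma), a call lost with all genes above 0 in the test (adjusted p 0.0712). In ZCCHC8 it rose from dTAG to dTAG+Dox by 0.22 (adjusted p 0.0409 in limma), from 924.0 to 976.9 CPM (Z12H) and from 784.4 to 1011.6 CPM (Z4F), and this call was lost in edgeR on the recovered reads (adjusted p 0.190). No other change of Sfpq, and none of Pspc1, passed the threshold in the tests without a block of experiment. With that block 7 further changes of Sfpq and 2 of Pspc1 passed in the transgene lines. Sfpq was higher with Dox in WT XiO, by 0.32 without dTAG and 0.24 with it, in WT XX with dTAG by 0.23 and in D395A XiO with dTAG by 0.20, where 12%, 9.59%, 3.9% and 14.3% of all genes were called. Both genes were lower with dTAG in D395A XX with Dox (-0.23 for Sfpq, -0.25 for Pspc1, with 29.3% called) and in D395A XiO without Dox (-0.19 and -0.28, with 34.4% called), and Sfpq in D395A XX without Dox (-0.17, with 37.5% called). The highest adjusted p of these was 0.0417 in limma.

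Tardbp rose after depletion of ZFC3H1. It was at 212.5 CPM (11A) and 300.7 CPM (8H) untreated and at 389.8 and 410.2 CPM with dTAG, and at 225.3 and 277.2 CPM with Dox against 389.0 and 447.3 CPM with dTAG+Dox. All 4 libraries with dTAG lay above all 4 without it. The rise was 0.66 (SE 0.10, adjusted p 0.00730 in limma) without Dox and 0.74 (SE 0.10, adjusted p 0.00369 in limma) with Dox. It was 0.87 in 11A and 0.45 in 8H without Dox, and with all genes above 0 tested that call was lost (adjusted p 0.0538).

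Tardbp in ZCCHC8 was at 382.5 and 343.7 CPM untreated and 393.9 and 405.5 CPM with dTAG (Z12H, Z4F), a change of 0.14 (adjusted p 0.260 in limma). With Dox it changed by 0.01 when dTAG was added (adjusted p 0.954 in limma). In the second YTHDC1 experiment it fell by 0.24 when dTAG was added to Dox (adjusted p 0.0112 in limma), from 275.3 to 232.7 CPM (Y12H) and from 281.0 to 237.2 CPM (Y9F). Dox alone had raised it there by 0.21, from 228.3 and 251.3 CPM (adjusted p 0.0299 in limma).

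**Figure D5:**
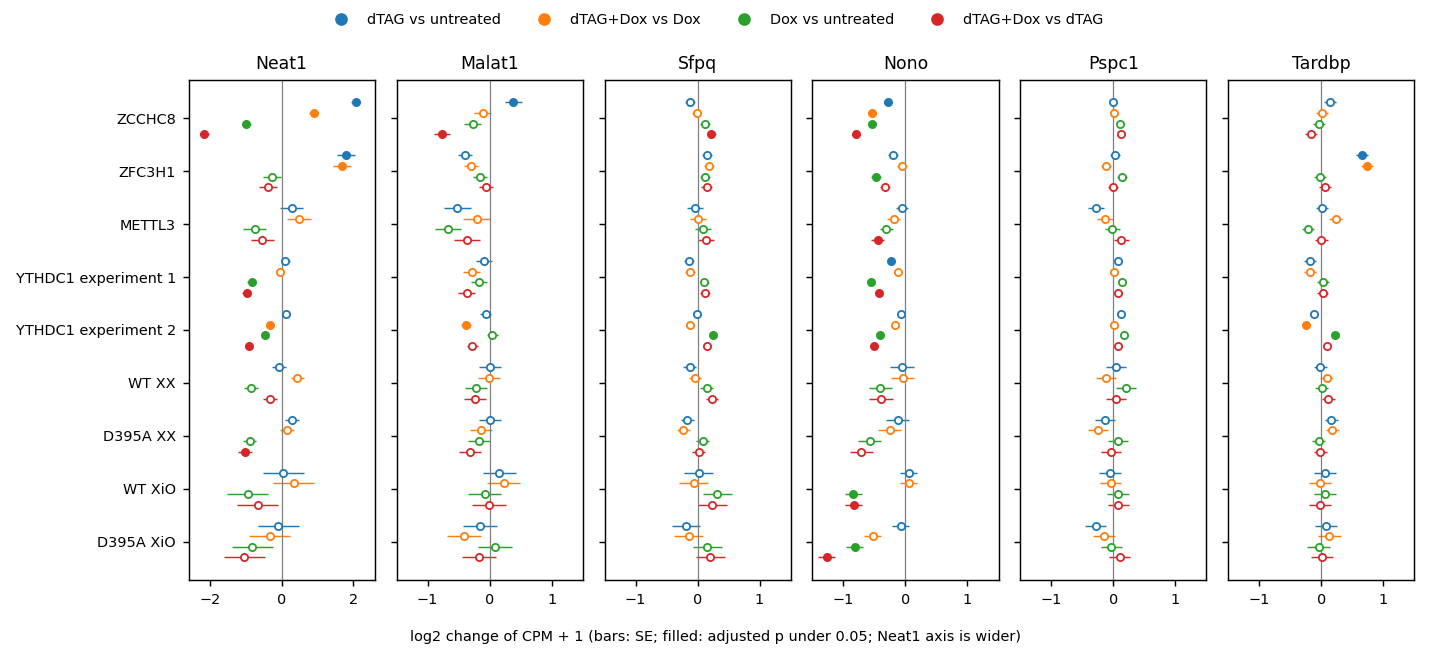
Points are changes on the log2(CPM + 1) scale with SE bars from limma, for each of the 6 genes with reads, by line, for dTAG against untreated, dTAG+Dox against Dox, Dox against untreated and dTAG+Dox against dTAG. Filled points passed an adjusted p of 0.05. With dTAG, Neat1 stands at 2.07 and 0.89 in ZCCHC8 and at 1.79 and 1.69 in ZFC3H1, and Tardbp at 0.66 and 0.74 in ZFC3H1.

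The number of the 6 genes called was set beside the share of all tested genes called in the same comparison. For dTAG against untreated, 3 of 6 were called in ZCCHC8 (36.1% of all genes), 2 in ZFC3H1 (2.15%), 1 in the first YTHDC1 experiment (19.0%) and 0 in the second (17.8%), where 0 of the 6 had an unadjusted p under 0.05 and edgeR called 0. METTL3 gave 0 (23.3%), with 2 at an unadjusted p under 0.05 and 0 in edgeR. The transgene lines gave 0 in limma and in edgeR, with background shares of 6.01% (D395A XX), 0% (WT XX), 0.402% (D395A XiO) and 0% (WT XiO), and 0 of the 6 had an unadjusted p under 0.05. With experiment as a block, 1 was called in D395A XX (37.5%), 2 in D395A XiO (34.4%) and 0 in both WT lines (0% each).

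For dTAG+Dox against Dox the counts were 2 of 6 in ZCCHC8 (40.4% of all genes), 2 in ZFC3H1 (3.15%) and 3 in the second YTHDC1 experiment (14.7%). METTL3 gave 0 in limma (10.5%) and 1 in edgeR, and the first YTHDC1 experiment 0 in both (15.5%), with 1 of the 6 at an unadjusted p under 0.05 in each line. D395A XX (3.19%), WT XX (0%), D395A XiO (0.0521%) and WT XiO (0%) gave 0 in limma and in edgeR, with 1, 1, 1 and 0 of the 6 at an unadjusted p under 0.05. With experiment as a block, 3 were called in D395A XX (29.3%), 2 in D395A XiO (31.1%) and 0 in both WT lines (0% each). The median change of the 6 genes in ZFC3H1 was 0.06 with Dox and 0.09 without, against 0.00 and -0.01 over all genes, so the 2 genes called do not stand for the list. In ZCCHC8 the median was -0.01 with Dox and 0.07 without, against 0.04 and -0.01.

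For Dox against untreated the counts were 2 of 6 in the first YTHDC1 experiment (12.6%), 4 in the second (10.0%), 2 in ZCCHC8 (10.9%), 1 in ZFC3H1 (1.11%) and 1 in each of D395A XiO (0.580%) and WT XiO (1.17%). They were 0 in METTL3 (0.778%), D395A XX (0.232%) and WT XX (0.00748%) in limma and in edgeR, with 4, 2 and 1 of the 6 at an unadjusted p under 0.05. For dTAG+Dox against dTAG they were 1 in METTL3 (1.49%), 2 in each YTHDC1 experiment (13.4% and 7.87%), 4 in ZCCHC8 (29.0%), 1 in D395A XX (0.868%), 1 in D395A XiO (1.47%) and 1 in WT XiO (1.12%). ZFC3H1 (1.11%) and WT XX (0.0150%) gave 0 in limma and in edgeR, with 1 of the 6 at an unadjusted p under 0.05 in each. With experiment as a block, Dox against untreated gave 2 in D395A XX (5.86%), WT XX (3.18%) and D395A XiO (7.8%) and 3 in WT XiO (12%), and dTAG+Dox against dTAG gave 3 in each of these lines (7.47%, 3.9%, 14.3% and 9.59%). Neat1 was the single one of the 6 whose dTAG effect in ZCCHC8 differed with Dox (0.238% of all genes). Between ZCCHC8 and YTHDC1, 2 of 6 differed with Dox (29.6%) and 1 without (25.1%).

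RNA of the genes of other paraspeckle and nuclear speckle proteins was set beside Neat1 and Malat1. It does not report the bodies or their protein. Of 26 other paraspeckle proteins tested in ZFC3H1, 2 rose with dTAG and 0 fell, with a median of 0.03 against -0.01 over all genes, of which 2.15% were called. These were Cpsf6, a subunit of a 3′ end processing factor (0.55, adjusted p 0.00592 in limma), and Rbm3, a cold-inducible RNA-binding protein (0.86, adjusted p 0.0267 in limma). Of 12 nuclear speckle proteins 2 rose and 0 fell, namely Pnisr (0.78, adjusted p 0.00779 in limma) and Luc7l3 (0.83, adjusted p 0.0171 in limma), with a median of 0.07. With Dox, where 3.15% of all genes were called, 3 of 26 and 4 of 12 rose and 0 fell, Srsf1 and Srsf5, splicing factors of the SR family, among the latter (0.61 and 0.51).

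In ZCCHC8 0 of 26 other paraspeckle proteins rose with dTAG and 7 fell, with a median of -0.09 against -0.01 over all genes, of which 36.1% were called. With Dox 3 rose and 5 fell (40.4% of all genes), Rbm4b, an RNA-binding protein, rising by 0.61 (adjusted p 8.08e-04 in limma) and Rbm3 falling by 0.36. In the comparison without Dox, Cpsf7, of the same processing factor as Cpsf6, fell by 0.29 (adjusted p 0.00102 in limma). Ewsr1, an RNA-binding protein, fell there by 0.19 (adjusted p 0.0190 in limma), and Rbmx and Rbm3, which are X-linked, by 0.29 and 0.24. Of 12 nuclear speckle proteins 2 fell without Dox, Srsf2 by 0.36 (adjusted p 1.70e-04 in limma) and Rnps1 by 0.25 (adjusted p 0.0107 in limma), and 0 rose. With Dox 2 fell, Srrm2 by 0.31 and Srrm1 by 0.21, and 0 rose.

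Genes near Neat1 and Malat1 were set beside them. Of 21 genes within 200 kb, 14 were tested in ZCCHC8, of which 0 rose and 3 fell with dTAG (36.1% of all genes called): Pola2, a DNA polymerase alpha subunit (-0.49, adjusted p 8.71e-05 in limma), Kat5, a histone acetyltransferase (-0.50, adjusted p 3.92e-04 in limma), and Pcnxl3 (-0.48, adjusted p 0.00279 in limma). With Dox 1 rose and 1 fell when dTAG was added (40.4% called), Rnaseh2c, a ribonuclease H2 subunit, by 0.58 (adjusted p 0.0162 in limma) and Pola2 by -0.34. From dTAG to dTAG+Dox, where Neat1 fell by 2.17, 6 of the 14 rose and 0 fell (29.0% called), Capn1 by 0.68 (adjusted p 0.00150 in limma). In ZFC3H1 0 of 14 passed the threshold in either dTAG comparison in limma, with 0 at an unadjusted p under 0.05 without Dox and 1 with Dox. In METTL3 3 of 14 rose with dTAG and 0 fell (23.3% called), with a median of 0.72 against 0.21 over all genes, and Ehbp1l1 rose by 1.31 (adjusted p 0.00518 in limma). With Dox 1 of 14 rose (10.5% called), again Ehbp1l1, with a median of 0.58 against 0.23.

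The pattern of Neat1 over the 80 libraries, each set against the mean of its clone and experiment, was most like that of Fam219a (Pearson's r 0.846), Parp11 (0.793), Nap1l2 (0.754), Xkr6 (0.748) and E030011O05Rik (0.728). For Malat1 these were Tmem55b (0.797), Sox6 (0.756), Dleu2 (0.747), Rpe (0.727) and Zfp57 (0.726). The coefficients describe libraries that share depth and treatment, and no test was made. Neat1 and Malat1 themselves correlated with r 0.295, and Neat1 and Nono, both lower with Dox, with r 0.53.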

How the data were processed

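ChrRNA-seq libraries of mES cells were made by the study from chromatin RNA with a stranded total RNA kit. Per the labels, the authors used Bowtie2, STAR, SAMtools, featureCounts and edgeR on mm10. The deposited tables hold CPM per gene over both alleles, and the deposited allelic ratios hold, as a fraction, the share of reads of the X whose Xist is inducible, for genes with at least 10 reads over variants. Another 24 columns matched no sample and were not used. The YTHDC1 tables have the same column names, and the one named as a second replicate was taken as experiment 2. Values were whole multiples of 1 read in 100% of cases (tolerance 0.1 reads), which gave depth.

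Changes were tested on log2(CPM + 1) with limma 3.58.1 (lmFit, eBayes with trend; R 4.3.3), for genes averaging 1 CPM or more, in 1 fit per table with all its libraries. Clone was a block in degron lines, since the labels name the same clone in each treatment (mean correlation of residuals within a clone 0.294 to 0.866), and there was no block in transgene lines, whose replicates are experiments of 1 clone. Residuals within 1 experiment were correlated there too (means of 0.568 to 0.885), so tests without a block of experiment ignore this pairing. P-values were two-sided and Benjamini-Hochberg adjusted over every gene tested, and called where the adjusted p was under 0.05. Where replicates are experiments of 1 clone, p-values measure the spread between these libraries only. Among 56 pairs of replicates 0 were identical and chi-square per degree of freedom was at least 7.60. Alternatives were a pseudocount of 0.25, all genes above 0, median-ratio scaling, edgeR 4.0.16 quasi-likelihood on the recovered reads, fits of a single line, fits with or without the block, a covariate for the share of reads in genes under 3 kb, and leaving out each replicate. The code was tested on simulated data. The 7 genes and the other lists (paraspeckle and speckle proteins, neighbours within 200 kb, markers) were chosen with earlier results of these data known. From the other lists, up to 4 called genes with the lowest adjusted p per comparison could be named, and the 5 genes most like Neat1 and Malat1. Transcripts and sequences came from RefSeq and the reference genome (GRCm38).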

Additional observations from a re-analysis of the deposited data

Results flagged for a closer look

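The effect of dTAG on Neat1 in ZCCHC8 was listed because its interaction with Dox passed the test, at -1.17 on the log2(CPM + 1) scale. Differences between the ZCCHC8 and YTHDC1 lines of the same table also passed: the change of Neat1 with dTAG was higher in ZCCHC8 by 1.97 without Dox and by 0.94 with Dox, that of Nono with Dox was lower by -0.43, and that of the Nono allelic ratio with Dox was lower by -0.106, a call lost when any 1 clone was left out.

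Opposite directions in every clone were met for the change from Dox to dTAG+Dox, where the difference was not tested because the lines are in separate tables. Neat1 was higher in ZCCHC8 and lower in the second YTHDC1 experiment (difference 1.22), and higher in ZFC3H1 and lower in that experiment (difference 2.01). Tardbp was higher in ZFC3H1 and lower in that experiment (difference 0.98).

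A single library lay far from the others of its group. Pspc1 in YTHDC1 clone Y12H with Dox (second experiment) was at 445.1 CPM, and its gap to the nearest library was 0.964 of the group's range, above Dixon's critical value for 4 samples. It was 1 of 56 groups tested, and chance gives a gap above that critical value in about 1 in 20 groups. How often chance gives a gap as large as 0.964 was not tested. Pspc1 of Y12H in this experiment was also the highest of the YTHDC1 values untreated (387.4 CPM), with dTAG (424.8 CPM) and with dTAG+Dox (474.3 CPM). The group joins both clones and both experiments, which were normalized separately.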

How the results depend on the processing

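The number of the 6 genes called moved as follows. Without a replicate block (clone) it went to 0 in METTL3 (dTAG+Dox against dTAG), to 0 in the first YTHDC1 experiment (dTAG against untreated), to 0 for the ZCCHC8 interaction, to 0, 0 and 1 in the second YTHDC1 experiment (dTAG+Dox against Dox, Dox against untreated, dTAG+Dox against dTAG) and to 0 in ZFC3H1 in all 3 comparisons with calls, where Neat1 and Tardbp had an adjusted p of 1.00 in limma. With a replicate block (experiment), which pairs libraries of the same experiment and whose residuals correlated by 0.57 to 0.88, it went, for dTAG+Dox against Dox, dTAG against untreated, Dox against untreated and dTAG+Dox against dTAG, to 3, 1, 2 and 3 in D395A XX and to 2, 2, 2 and 3 in D395A XiO. For the 2 comparisons with Dox alone it went to 2 and 3 in WT XX and to 3 and 3 in WT XiO. With all genes above 0 it went to 0 for METTL3 and D395A XX (dTAG+Dox against dTAG), to 0 for the ZCCHC8 interaction (Neat1 adjusted p 0.0986 in limma), to 2 for the second YTHDC1 experiment (Dox against untreated) and to 1, 0 and 0 in ZFC3H1 (dTAG+Dox against Dox, dTAG against untreated, Dox against untreated). Median-ratio scaling gave 1 in METTL3 for both dTAG comparisons (Nono) and 0 for dTAG+Dox against dTAG, and in D395A XX 1 (dTAG against untreated) and 0 (dTAG+Dox against dTAG). EdgeR gave 1 in METTL3 (dTAG+Dox against Dox) and 0 in D395A XX (dTAG+Dox against dTAG). Fits of a single line gave 1 in the first YTHDC1 experiment (dTAG+Dox against Dox), 0 in D395A XiO (Dox against untreated) and 0 and 0 in WT XiO (both Dox comparisons).

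Leaving out 1 replicate gave 0 to 1 genes in METTL3 (dTAG against untreated, 1 without C3), 0 to 0 in METTL3 (dTAG+Dox against dTAG), the first YTHDC1 experiment (dTAG against untreated), D395A XX (dTAG+Dox against dTAG) and both XiO lines (both Dox comparisons), and 2 to 4 (with Dox, 4 without Z12H) and 1 to 3 (without Dox, 2 without Z4F and 3 without Z12H) for ZCCHC8 against YTHDC1. The change of Neat1 turned sign in 8 such cases, none of them called: METTL3, dTAG against untreated, -0.21 (without H1) to 0.61; first YTHDC1 experiment, dTAG+Dox against Dox, -0.127 to 0.0396 (without Y12H); ZFC3H1, dTAG+Dox against dTAG, -0.99 to 0.22 (without 11A); D395A XX, dTAG+Dox against Dox, -0.0081 to 0.308; WT XX, dTAG against untreated, -0.25 to 0.0932; D395A XiO, -0.663 to 0.00237 with Dox and -0.277 to 0.0772 without; WT XiO, dTAG against untreated, -0.25 to 0.34, and -0.0042 in edgeR. The ratio of Nono with dTAG+Dox against Dox ranged from -0.0651 to -0.0536 in METTL3 (adjusted p 0.0565 without H5), from -0.128 to -0.0839 for ZCCHC8 against YTHDC1 (-0.0887 without Y9F, -0.123 without Y12H, call lost in all 4 cases) and from -0.0447 to 0.0106 in WT XX. As log2 of ratio over 1 minus ratio it was called in ZCCHC8 (-0.404, adjusted p 0.0377 in limma) and D395A XX (-0.952, adjusted p 0.00816 in limma).

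The cause of these moves was not tested. Fits on a single ZFC3H1 or second-experiment YTHDC1 clone have no test. Most groups had 2 replicates, and 1 read was worth up to 0.117 CPM.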
